A study of Mus musculus with 22 samples.

Results

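Muscle stem cells 1 day after injury were compared with muscle stem cells of uninjured muscle at ZT4, in 7 of the 22 libraries of the series: 4 from day 1 and 3 from uninjured muscle, chosen by their titles. All cells came from hindlimb muscle of Pax7-zsgreen mice, in which the fluorescent protein ZsGreen marks cells that express Pax7, the transcription factor that defines muscle stem cells. Both groups carry this reporter, and the cells of both were lightly fixed in vivo before RNA was extracted. The injury was cardiotoxin, a snake toxin that kills myofibers and spares most stem cells. ZT4 is zeitgeber time 4, 4 h after lights on. The labels tie the time to the injury. They give neither the hour of collection, the age and sex of the mice nor whether libraries are separate mice. Uninjured muscle has no injury, so its ZT4 may be the hour of collection. Whether both groups were collected at the same hour is not known. The p-values rest on the spread between libraries of the whole series, which may be technical.

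In uninjured muscle the stem cell is quiescent: it sits between the myofiber and its basement membrane, with little RNA and protein synthesis and no cell division. Notch signals, FoxO transcription factors and inhibitors of cyclin-dependent kinases are known to hold that state. After injury the cell leaves its niche, enlarges, makes the myogenic factor MyoD, and enters its first cell cycle, which takes longer than the later ones. Immediate early genes are switched on within minutes of a stimulus without new protein synthesis, and taking muscle apart is itself such a stimulus. Fixation in the animal is meant to hold the RNA as it was before dissection.

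The files hold RSEM expected counts per transcript, which were summed per gene. Levels are CPM, counts per 1000000 counts of the library, with TMM scaling, given library by library, uninjured replicates 1 to 3 and day 1 replicates 1 to 4 in that order. A change is the log2 fold change of day 1 over uninjured (log2FC) ± its standard error (SE) from edgeR's quasi-likelihood test, fitted on all 22 libraries, with Benjamini-Hochberg adjusted p over all 15084 genes tested and 0.05 as the threshold. A gene past it is said to have risen or fallen. Other settings named below are DESeq2, limma, RLE size factors in place of TMM, an offset for effective gene length, no filter on low counts, and a fit on the 7 libraries alone. The 7 libraries held 5965957 to 8108753 counts. Correlations of log2 CPM were 0.9735 to 0.9772 among day 1 libraries, 0.9356 to 0.9639 among uninjured ones and 0.7554 to 0.8132 between the groups, and uninjured replicate 3 had the lowest total, the fewest genes with a count (15812) and the lowest correlations.

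Of 15084 genes, 4538 rose (30.1%) and 5153 fell (34.2%), and the counts of each list below are to be read against these shares. The lists were chosen with earlier results of these data known, so a count above these shares is a description and not independent support. At least 2-fold changes were seen in 2802 genes that rose and 3410 that fell, and at least 8-fold changes in 853 and 496. The median log2 fold change of all genes was −0.12 and the median of the absolute values 0.90. The CPM ranges of the groups did not overlap for 9275 genes (61.5%). CPM values are shares of a library's RNA, and in such bulk samples fewer cells of a type and less RNA per cell cannot be told apart.

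Markers of the sorted cell type were present in every library. Summed over 8 muscle stem cell markers (Pax7, Myf5, Cdh15, Calcr, Itga7, Vcam1, Sdc4 and Myod1), the level was 3872, 4478 and 4257 CPM in uninjured and 4194, 4052, 3897 and 4162 CPM at day 1. Of these markers 5 fell and 2 rose (median −1.07): Myod1 rose while Pax7, Myf5 and Calcr fell, as given below. Leukocyte markers moved with the injury. The sum of 16 macrophage and monocyte markers was 18.4, 33.4 and 42.9 CPM in uninjured libraries, with 4, 2 and 9 of the 16 at 0, and 2689, 2842, 4666 and 2772 CPM at day 1. Neutrophil markers summed to 0.113, 3.46 and 0 and 142, 138, 249 and 67.8 CPM, 5 of the 9 passed the filter on low counts, and the granule genes Camp, Ly6g and Ngp were at 0 in all 7 libraries. Mast cell markers summed to 2.15, 24.0 and 0.481 and 182, 208, 129 and 229 CPM. Glial markers went the other way, with sums of 51.6, 93.1 and 41.0 CPM and 8.73, 6.94, 8.55 and 15.2 CPM. A marker near 0 in one group passes the filter only through the other, so no count of calls is given for these lists. None of 8 endothelial markers changed past the threshold in edgeR (1 had an unadjusted p under 0.05, and 1 was called by DESeq2 and 0 by limma, and 1 with RLE size factors, a length offset or no filter). Without uninjured replicate 1, 2 of them rose, and without day 1 replicate 2, 3 or 4, 1 rose. Of 12 myofiber markers 4 fell and 8 did not pass. With 1 library left out, 1 fell (without uninjured replicate 2) or 2 fell (without uninjured replicate 1 or day 1 replicate 1). Mural markers summed to 1223, 1048 and 797 and 348, 397, 387 and 337 CPM, with 5 of 8 falling, and fibro-adipogenic markers to 405, 384 and 412 and 108, 99.3, 70.9 and 74.7 CPM, with 3 of 8 tested rising and 1 falling. Falls were 3 of the mural markers without uninjured replicate 1 and 2 of the fibro-adipogenic ones without day 1 replicate 2. T, NK and B cell markers summed to at most 5.07 CPM in any library, and tendon markers to between 15.7 and 45.3 CPM. The plot of marker sums shows these levels by library.

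**Figure D1:**
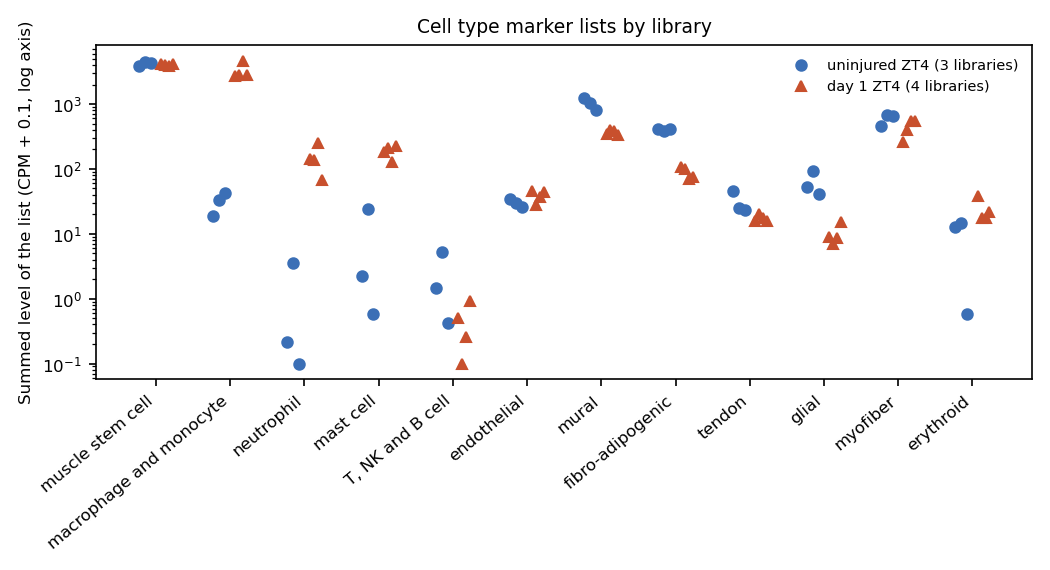
Summed level of each list of cell type markers in the 7 libraries (log axis, CPM + 0.1), with uninjured libraries as circles and day 1 libraries as triangles. Macrophage, neutrophil and mast cell sums are higher in each day 1 library than in each uninjured one, and the muscle stem cell sums overlap.

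The transcription factors that define the muscle lineage moved apart. Myod1, the factor of activated myoblasts (chromosome 7, 46376474 to 46379099 on GRCm38), was at 303, 197 and 279.8 CPM in uninjured muscle and 1397, 1389, 1213 and 1387 CPM at day 1, a rise in log2FC of 2.37 ± 0.13 (adjusted p = 3.97e-13). The ranges were far apart, and the day 1 libraries lay close together. Pax7 (chromosome 4, 139737062 to 139833528) went down from 296, 349 and 345 CPM to 59.6, 52.7, 49.8 and 55.6 CPM, log2FC −2.60 ± 0.15 (adjusted p = 6.6e-13). Its relative Pax3 fell as well (log2FC −2.0 ± 0.51). Myf5, a factor already expressed in most quiescent cells, was at 515, 566 and 658 CPM in uninjured muscle and 245, 222, 205 and 215 CPM at day 1 and fell (log2FC −1.39 ± 0.24, adjusted p = 5e-05).

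Myogenin and the fusion genes were lower at day 1, from uninjured levels that varied widely. Myog, which encodes myogenin, the factor of myoblasts that leave the cell cycle (chromosome 1, 134289989 to 134292548), was at 533, 323 and 96.6 CPM in uninjured muscle and 7.09, 9.47, 4.98 and 3.17 CPM at day 1 (log2FC −5.69 ± 0.57, adjusted p = 1.56e-07). The groups did not overlap. The fusion protein genes fell with it. Mymk, which encodes myomaker, was at 83.3, 49.9 and 26.4 CPM in uninjured muscle and 0.682, 0.631, 0 and 0.551 CPM at day 1 (log2FC −6.77 ± 0.61), and Mymx, which encodes myomixer, was at 5.87, 3.84 and 0.320 CPM in uninjured muscle and 0, 0.158, 0 and 0 CPM at day 1 (log2FC −6.04 ± 0.99). In all 3 genes uninjured replicate 3 was the lowest of the uninjured libraries. Of 13 myogenic regulators tested, 2 rose and 8 fell. The other rise was Mef2a (log2FC 0.76 ± 0.17), and Mef2d fell (log2FC −0.39 ± 0.11). Mef2c (log2FC 0.74 ± 0.40), Myf6 (log2FC −0.78 ± 0.39) and Six4 (log2FC −0.37 ± 0.23) did not pass. Per length, in the deposited TPM (transcripts per 1000000), Myod1 was at 261, 153 and 193 TPM in uninjured libraries and 1059, 1050.2, 879 and 1057 TPM at day 1, Myf5 at 391, 387 and 399.5 and 163, 147, 129.9 and 144 TPM, and Pax7 at 92.2, 95.3 and 82.5 and 17.6, 16.1, 13.8 and 16.2 TPM. Myf5 was above Myod1 in each uninjured library, and Myod1 above Myf5 in each day 1 library. With 1 library left out, the threshold was passed by Mef2c without day 1 replicate 1 (adjusted p = 0.0261, log2FC 0.99) and Myf6 without day 1 replicate 3 (adjusted p = 0.0437, log2FC −0.99). Other settings did not call Mef2d with a length offset or no filter (adjusted p from 0.121 to 0.648, log2FC −0.09 with the length offset). Other settings did call Mef2c with no filter (adjusted p = 0.0133) and Myf6 with limma (adjusted p = 0.0347).

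**Figure D2:**
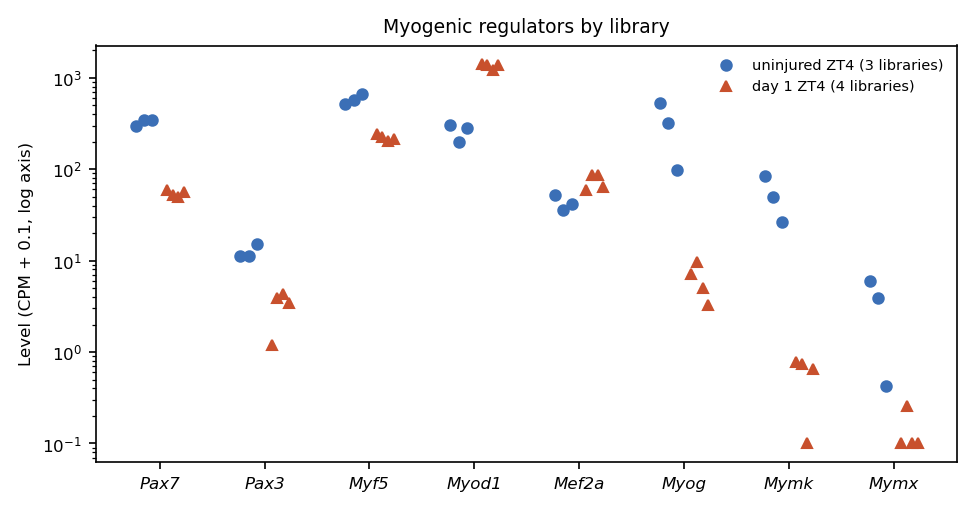
Level of 8 myogenic regulators in each library (log axis, CPM + 0.1), with uninjured libraries as circles and day 1 libraries as triangles. Myod1 is higher in each day 1 library, and Pax7, Myf5, Myog, Mymk and Mymx are higher in each uninjured one.

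Genes known for the quiescent state were mostly lower at day 1. Of 15 surface and secreted genes of quiescent cells, 11 fell and 3 rose, with a median of −0.85. Tek, which encodes the angiopoietin receptor TIE2, was at 89.5, 89.2 and 82 CPM in uninjured muscle and 12.7, 11.5, 14 and 16.4 CPM at day 1 (log2FC −2.67 ± 0.19, adjusted p = 1.23e-11). Chrdl2, a secreted BMP antagonist, was at 638, 595 and 539 CPM in uninjured muscle and 34.6, 42.8, 36.9 and 30.2 CPM at day 1 (log2FC −4.03 ± 0.28). The calcitonin receptor gene Calcr, whose signal holds cells in the niche, fell by 2.93 ± 0.30, from 242, 252 and 149 to 28.6, 30.1, 27.1 and 26.9 CPM. The adhesion gene Ncam1 fell too (log2FC −1.25 ± 0.13). Risen against the list were Cdh2, which encodes N-cadherin (log2FC 2.46 ± 0.20), and the syndecan genes Sdc3 (log2FC 0.68 ± 0.13) and Sdc4 (log2FC 0.76 ± 0.21).

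In the Notch pathway 10 of 18 genes fell and 4 rose (median −0.90). The 3 receptors tested fell: Notch3, the most changed, was at 383, 439 and 465 CPM in uninjured muscle and 82.5, 72.9, 48.2 and 82.3 CPM at day 1 (log2FC −2.58 ± 0.20, adjusted p = 5.59e-10). The target genes Hes1 (log2FC −2.53 ± 0.21) and Hey1 (log2FC −1.87 ± 0.16) fell with it, and Hes1 was at 362, 309.6 and 286 CPM in uninjured muscle and 61.2, 52.5, 55.5 and 51.1 CPM at day 1. Hey2 (log2FC −1.3 ± 0.89) and Nrarp (log2FC −0.09 ± 0.47), targets of low level, did not pass. Numb, an inhibitor of Notch, also fell (log2FC −1.21 ± 0.15). The genes that rose were Rbpj, the DNA-binding partner of Notch (log2FC 0.41 ± 0.11), the ligand genes Jag2 (log2FC 1.51 ± 0.39) and Dll4 (log2FC 3.49 ± 1.09), and the glycosyltransferase gene Lfng (log2FC 4.64 ± 1.07), the last pair from under 1 CPM in uninjured muscle.

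Of 19 genes of growth arrest and FoxO, 14 fell and 2 rose (median −1.5). Foxo1 was at 199, 232 and 308 CPM in uninjured muscle and 49.4, 46.2, 37.2 and 45.4 CPM at day 1 (log2FC −2.47 ± 0.17, adjusted p = 9.11e-12). Sesn1, a FoxO and p53 target that restrains mTORC1, was at 224, 221 and 219.7 CPM in uninjured muscle and 34.2, 30.9, 28.8 and 23.4 CPM at day 1 (log2FC −2.92 ± 0.17), and Pik3ip1, an inhibitor of PI3 kinase, at 231, 193 and 164 CPM in uninjured muscle and 11, 8.99, 9.33 and 10.1 CPM at day 1 (log2FC −4.31 ± 0.27). The CDK inhibitors did not move as 1 group. Cdkn1c, which encodes p57, was at 592, 398 and 94.9 CPM in uninjured muscle and 8.87, 6.0, 3.11 and 6.2 CPM at day 1 (log2FC −5.89 ± 0.55), Cdkn2d did not pass (log2FC −0.13 ± 0.31), and Cdkn1a, which encodes p21, rose from 44.0, 22.8 and 15.1 to 172, 159, 213 and 178 CPM (log2FC 2.71 ± 0.43, adjusted p = 2.81e-05). The other rise was the Rb family gene Rbl1, itself an E2F target (log2FC 2.58 ± 0.23).

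The machinery of the cell cycle was higher at day 1. Of 18 G1 cyclin and E2F genes 15 rose and 1 fell (median 1.69), of 34 DNA replication genes 34 rose (median 2.75), and of 24 mitosis genes 23 rose (median 2.42). Cdk6, a kinase that acts with D cyclins in G1, was at 8.02, 9.28 and 3.37 CPM in uninjured muscle and 66.7, 81.6, 87.4 and 87.4 CPM at day 1 (log2FC 3.52 ± 0.22, adjusted p = 2.45e-12). Ccne2, which encodes cyclin E2 of the G1 to S step, was at 9.37, 6.06 and 5.45 CPM in uninjured muscle and 106, 116, 102 and 101 CPM at day 1 (log2FC 3.91 ± 0.25). The repressor E2f8 rose by 3.90 ± 0.28 (log2FC) and the phosphatase gene Cdc25a by 2.27 ± 0.16 (log2FC). Ccnd3, which encodes cyclin D3, fell (log2FC −0.59 ± 0.12), and E2f5 (log2FC −0.13 ± 0.20) and E2f6 (log2FC 0.03 ± 0.11) did not pass.

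The MCM helicase, a ring of 6 proteins that opens DNA at replication origins, had all its subunit genes raised. Mcm3 was at 51.7, 41.8 and 25.2 CPM in uninjured muscle and 565, 589, 608 and 629.5 CPM at day 1 (log2FC 3.91 ± 0.17, adjusted p = 8.45e-15) and Mcm5 at 35.2, 22 and 12.7 CPM in uninjured muscle and 423, 430.2, 487 and 477 CPM at day 1 (log2FC 4.27 ± 0.24). Mcm6 reached the highest level of the 6, from 80.6, 38.7 and 32.7 to 666, 660.1, 756 and 711 CPM (log2FC 3.78 ± 0.27). Mcm2 rose by 3.82 ± 0.24 (log2FC), Mcm4 by 2.99 ± 0.13 (log2FC) and Mcm7 by 2.19 ± 0.11 (log2FC), and Mcm10, a firing factor, by 5.26 ± 0.40 (log2FC) from 3.27, 1.61 and 0.320 CPM. Rpa2, a single-strand DNA binding subunit, was at 29.9, 38.4 and 24.8 CPM in uninjured muscle and 161, 167, 187 and 183 CPM at day 1 (log2FC 2.49 ± 0.14). Cdc6, which loads the helicase, was at 9.60, 3.96 and 0.160 CPM in uninjured muscle and 167, 164, 184 and 137 CPM at day 1 (log2FC 5.06 ± 0.43), a gene named after its values were seen because its promoter is shown.

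E2F factors control many of these genes, so the promoters were searched for the letters of the classical E2F site, TTTCCCGC, TTTGGCGC, TTTGCCGC or TTTCGCGC, on both strands. Promoter windows were those of RefSeq on GRCm38.p6, 250 bases before to 50 after each start. At least 1 of these letter runs was found in 12 of 27 DNA replication genes with a promoter in the table (44.4%) and in 6 of 13 G1 cyclin and E2F genes (46.2%), against 704 of all 27025 genes with a promoter (2.6%) and 744 of 32851 promoters (2.26%). A match is a description of letters, not a bound site. Among mitosis genes it was 1 of 20. Other lists above the share of all genes were chromatin (4 of 12), splicing regulators (4 of 17) and ribosome biogenesis (3 of 20), among others. Many lists had none, such as the clock (0 of 17). E-box letters (CACGTG) were in 4 of 27 DNA replication and 4 of 13 G1 cyclin and E2F genes, against 8.09% of all genes. TGACTCA was in 0 of either list, against 5.95%. The 250 bases before the start of 3 replication genes that hold matches are shown, 5′ to 3′ on the gene's strand, with the matches in capitals. Mcm5 (chr8:75109259-75109508, plus strand) has a pair of overlapping matches, starting 153 and 149 bases before the start. Mcm6 (chr1:128359706-128359955, minus strand) has an overlapping pair at 110 and 106 and another at 47. Cdc6 (chr11:98907901-98908150, plus strand) has 1 match at 138.
Mcm5: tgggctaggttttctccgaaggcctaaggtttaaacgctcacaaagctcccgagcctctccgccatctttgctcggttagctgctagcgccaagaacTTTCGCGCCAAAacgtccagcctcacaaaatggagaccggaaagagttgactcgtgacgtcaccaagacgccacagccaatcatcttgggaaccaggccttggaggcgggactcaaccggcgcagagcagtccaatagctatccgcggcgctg
Mcm6: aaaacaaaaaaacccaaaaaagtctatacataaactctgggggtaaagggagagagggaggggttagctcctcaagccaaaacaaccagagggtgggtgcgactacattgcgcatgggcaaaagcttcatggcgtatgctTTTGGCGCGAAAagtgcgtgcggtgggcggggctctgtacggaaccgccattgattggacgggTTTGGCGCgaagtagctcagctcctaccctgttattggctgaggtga
Cdc6: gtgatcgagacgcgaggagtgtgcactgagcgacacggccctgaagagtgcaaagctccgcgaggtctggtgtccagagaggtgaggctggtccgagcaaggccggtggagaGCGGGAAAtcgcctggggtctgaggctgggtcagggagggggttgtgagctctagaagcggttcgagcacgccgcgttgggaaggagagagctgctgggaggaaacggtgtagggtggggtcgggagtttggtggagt

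Genes of mitosis rose from low levels. Mad2l1, a spindle checkpoint gene, was at 15, 16.3 and 12.5 CPM in uninjured muscle and 67.8, 74.0, 70.4 and 72.8 CPM at day 1 (log2FC 2.28 ± 0.18, adjusted p = 1.63e-10), Cdk1, the kinase that starts mitosis, at 29.0, 20.8 and 10.7 CPM in uninjured muscle and 174, 209, 229 and 176 CPM at day 1 (log2FC 3.27 ± 0.32), and Birc5, which encodes survivin, at 23.6, 6.81 and 12 CPM in uninjured muscle and 82, 107, 116 and 70.4 CPM at day 1 (log2FC 2.71 ± 0.31). The groups did not overlap in these 3 genes. Ccnb2, a mitotic cyclin gene, did not pass and overlapped (log2FC 0.31 ± 0.39). Of 14 chromatin genes 10 rose and none fell in edgeR (0 fell at an unadjusted p under 0.05, 0 by DESeq2 and 1 by limma). With uninjured replicate 3 left out, 1 fell. Hmga1, an architectural chromatin protein of proliferating cells, was at 4.29, 6.06 and 6.25 CPM in uninjured muscle and 714, 685, 627 and 639 CPM at day 1 (log2FC 6.92 ± 0.22, adjusted p = 1.04e-16). Its relative Hmga2 was at 0.113, 0.124 and 0.160 CPM in uninjured muscle and 31.2, 31.4, 18.3 and 26.5 CPM at day 1 (log2FC 7.52 ± 0.45), and the maintenance DNA methyltransferase gene Dnmt1 at 39.7, 37.6 and 22.1 CPM in uninjured muscle and 329, 307, 302 and 320.4 CPM at day 1 (log2FC 3.24 ± 0.19). The de novo methyltransferase genes Dnmt3a (log2FC −0.27 ± 0.15) and Dnmt3b (log2FC 0.35 ± 0.33) and the demethylase genes Kdm6a (log2FC −0.33 ± 0.27) and Kdm6b (log2FC −0.25 ± 0.28) did not pass. With a length offset, Dnmt3a was called higher (log2FC 0.55, adjusted p = 0.00346). Passing with 1 library fewer were Ccnb2 without uninjured replicate 1 (adjusted p = 0.00499, log2FC 1.26) and Dnmt3a without uninjured replicate 3 (adjusted p = 0.0121, log2FC −0.42). Under other settings a call was made for Ccnb2 with no filter (adjusted p = 0.0397) and Dnmt3a with limma (adjusted p = 0.0255).

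Myc, the factor that drives ribosome and nucleotide synthesis, was at 203, 254 and 154 CPM in uninjured muscle and 588, 584, 553 and 570.3 CPM at day 1 (log2FC 1.49 ± 0.26, adjusted p = 7e-05). Its relatives went down: Mycn was at 61.9, 30.7 and 27.1 CPM in uninjured muscle and 6.68, 10.1, 8.71 and 7.44 CPM at day 1 (log2FC −2.28 ± 0.33), and Mycl fell by 2.57 ± 0.59 at a lower level. The partner Max passed the threshold downward (log2FC −0.31 ± 0.11), a call that most other settings did not make. Of the repressors that compete for Max, Mxd4 was at 145, 109.9 and 99.7 CPM in uninjured muscle and 17.3, 17.5, 14.6 and 16.4 CPM at day 1 (log2FC −2.84 ± 0.17, adjusted p = 6.48e-13), Mxi1 fell (log2FC −1.14 ± 0.16), Mxd1 (log2FC 1.70 ± 0.36) and Mxd3 (log2FC 1.3 ± 0.37) rose, and Mnt did not pass (log2FC −0.98 ± 0.46). With 1 library left out, the call was lost for Max without uninjured replicate 1 or 3 (adjusted p from 0.0845 to 0.177). The threshold was passed by Mnt without uninjured replicate 3 or day 1 replicate 3 (adjusted p from 0.0203 to 0.0476). Under other settings no call was made for Max with DESeq2, RLE size factors, a length offset, limma, no filter or the 7 libraries alone (adjusted p from 0.0537 to 0.334). A call was gained by Mnt with limma (adjusted p = 0.0211).

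Genes of ribosome assembly and tRNA charging rose throughout. All 25 ribosome biogenesis genes rose (median 1.45), as did all 20 cytosolic tRNA synthetase genes (median 1.20). Of 14 translation factor genes 11 rose and 1 fell. Ncl, which encodes the nucleolar protein nucleolin, was at 475, 545 and 482 CPM in uninjured muscle and 2534, 2434, 2622 and 2563 CPM at day 1 (log2FC 2.34 ± 0.10, adjusted p = 4.7e-15). Nop58, a core protein of box C/D snoRNPs, was at 142, 135 and 103 CPM in uninjured muscle and 579, 556, 598 and 526 CPM at day 1 (log2FC 2.16 ± 0.11), and the alanyl-tRNA synthetase gene Aars at 114, 108 and 97.9 CPM in uninjured muscle and 382, 359, 383 and 367 CPM at day 1 (log2FC 1.80 ± 0.09). In each of them the groups were apart. Eif2s1, the alpha subunit of the initiation factor eIF2, rose by 2.42 ± 0.10 (log2FC), from 117, 109 and 91.2 to 567, 554, 603 and 544 CPM, while the elongation factor gene Eef2 fell (log2FC −0.50 ± 0.12) with overlapping ranges and Eif5b did not pass (log2FC 0.06 ± 0.14).

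The ribosomal proteins themselves moved in both directions. Of 20 cytosolic ribosomal protein genes 6 rose, 3 fell and 11 did not pass, with a median of 0.07. Rps2 was at 943, 1651 and 1663 CPM in uninjured muscle and 2298, 2112, 1903 and 2292 CPM at day 1 (log2FC 0.60 ± 0.17) and Rpl13 at 1855, 1980.0 and 2113 CPM in uninjured muscle and 1362, 1290.5, 1357 and 1245 CPM at day 1 (log2FC −0.59 ± 0.08). Without uninjured replicate 1 the list had 3 up and 6 down, so its balance turned with 1 library, and without day 1 replicate 1 it had 3 up. These genes have many near-identical copies in the genome, and how reads were shared among them is not known from the files.

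Of 17 nucleotide synthesis genes 16 rose and 1 fell (median 1.58). Prps1, which makes the ribose donor of both purines and pyrimidines, was at 36.1, 31.6 and 31.7 CPM in uninjured muscle and 152, 151, 167 and 173 CPM at day 1 (log2FC 2.28 ± 0.12, adjusted p = 2.18e-13), and Ctps, the CTP synthase of proliferating cells, at 69.4, 59.9 and 49.5 CPM in uninjured muscle and 277, 262, 301 and 290.3 CPM at day 1 (log2FC 2.24 ± 0.12). Its paralog Ctps2 fell (log2FC −0.69 ± 0.17) with overlapping ranges. Of 13 serine and one-carbon genes 11 rose, among them Shmt2, the mitochondrial serine hydroxymethyltransferase, at 95.4, 58.5 and 52.2 CPM in uninjured muscle and 411, 369, 414 and 407 CPM at day 1 (log2FC 2.54 ± 0.16), and Phgdh, the first enzyme of serine synthesis (log2FC 2.5 ± 0.16). Mat2a, which makes the methyl donor S-adenosylmethionine, did not pass (log2FC −0.18 ± 0.17). Odc1, the first enzyme of polyamine synthesis, was at 119, 130.1 and 134 CPM in uninjured muscle and 1580.5, 1576, 1483 and 1607 CPM at day 1 (log2FC 3.61 ± 0.33), and its inhibitors Oaz1 (log2FC −0.39 ± 0.09) and Oaz2 (log2FC −1.28 ± 0.09) fell. Asns, which makes asparagine and is a target of ATF4, was at 1.47, 1.48 and 0 CPM in uninjured muscle and 83.3, 87.1, 82.7 and 71.8 CPM at day 1 (log2FC 6.23 ± 0.32, adjusted p = 4e-13). Of 13 amino acid transport and ATF4 genes 11 rose, and Ddit4, an inhibitor of mTORC1, fell (log2FC −2.62 ± 0.39). The call was not made for Oaz1 with no filter (adjusted p = 0.0665).

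Genes of energy metabolism changed in several directions. Of 19 glycolysis genes 14 rose and 3 fell (median 1.40). Ldha, which makes lactate from pyruvate, was at 641, 508 and 427 CPM in uninjured muscle and 2540.4, 2539.7, 2901 and 2829 CPM at day 1 (log2FC 2.36 ± 0.13, adjusted p = 2.69e-13), and Eno1, which encodes enolase, at 891, 789.7 and 725 CPM in uninjured muscle and 2721, 2706, 3237 and 2908 CPM at day 1 (log2FC 1.85 ± 0.09). Paralogs differed in direction: Hk2 rose from 1.58, 2.10 and 1.92 to 56.9, 50.8, 50.7 and 59.7 CPM (log2FC 4.86 ± 0.29) while Hk1 fell (log2FC −0.78 ± 0.15), and Ldhb (log2FC −1.44 ± 0.15) and the muscle phosphofructokinase gene Pfkm (log2FC −0.94 ± 0.20) fell. Aldoa (log2FC 0.03 ± 0.09) and Pfkp (log2FC 0.07 ± 0.12) did not pass. Of 19 mitochondrial import and chaperone genes 18 rose (median 1.29), with Hspd1, which encodes HSP60, at 291, 289 and 238 CPM in uninjured muscle and 1376, 1335, 1478 and 1404 CPM at day 1 (log2FC 2.36 ± 0.12).

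Of the respiratory chain, nuclear and mitochondrial genes were counted apart. Of 30 nuclear genes 15 rose, 3 fell and 12 did not pass (median 0.22), led by Cycs, which encodes cytochrome c, at 123, 118 and 96.1 CPM in uninjured muscle and 432, 418, 396 and 383 CPM at day 1 (log2FC 1.86 ± 0.14). With DESeq2, RLE size factors, a length offset or no filter 1 fell. The genes that fell were Cox4i1 (log2FC −0.55 ± 0.10), Cox8a (log2FC −0.32 ± 0.11) and Ndufa1 (log2FC −0.33 ± 0.14). Without uninjured replicate 3, 1 of the nuclear genes fell. Of 11 genes of the mitochondrial genome, 7 fell and none rose in edgeR (0 with an unadjusted p under 0.05 and a positive change, 0 by DESeq2 and 0 by limma), with mt-Cytb at 2753, 3869.5 and 4989 CPM in uninjured muscle and 2048, 2061, 1771 and 1932 CPM at day 1 (log2FC −0.99 ± 0.16). Their summed share of all counts was 1.609%, 2.775% and 3.16% in uninjured and 0.982% to 1.394% in day 1 libraries, and uninjured replicate 1 was near the day 1 range. Of 21 genes of fatty acid handling 11 fell and 2 rose, with Decr1 of fatty acid oxidation at 53, 65.0 and 57.0 CPM in uninjured muscle and 22.2, 19.7, 18.7 and 19.0 CPM at day 1 (log2FC −1.55 ± 0.14). The rises were Cd36 (log2FC 1.66 ± 0.53) and Pparg (log2FC 2.53 ± 0.69), which macrophages also express. Without uninjured replicate 2 or with no filter, 4 genes of the list rose. The macrophage marker sums given above rose in the same libraries, and their part was not tested. Of 20 sterol genes 7 rose and 4 fell (median 0.51), and by limma or with no filter on low counts 11 rose and 4 fell. Insig2, which holds the sterol sensor SCAP in the endoplasmic reticulum, fell (log2FC −2.13 ± 0.15). In NAD metabolism 3 of 15 genes rose and 6 fell, and with no filter or without uninjured ZT16 replicates 1 and 3 5 rose. Nampt, whose product sets the pace of NAD salvage, was at 23.3, 22.3 and 15.4 CPM in uninjured muscle and 53.2, 61.5, 50.9 and 61.2 CPM at day 1 (log2FC 1.47 ± 0.15), Parp1 rose by 1.73 ± 0.14 (log2FC), and Sirt2 fell (log2FC −1.37 ± 0.12). The threshold was missed by Cox8a without uninjured replicate 3 (adjusted p = 0.114) and Ndufa1 without uninjured replicate 1 or 3 or day 1 replicate 2, 3 or 4 (adjusted p from 0.0619 to 0.24). Other settings did not call Cox8a with DESeq2, RLE size factors, a length offset or no filter (adjusted p from 0.0587 to 0.49, log2FC −0.10 with the length offset) and Ndufa1 with DESeq2, RLE size factors, a length offset, limma, no filter or the 7 libraries alone (adjusted p from 0.071 to 0.945, log2FC −0.01 with the length offset).

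Of protein breakdown genes, those of the proteasome rose, those of autophagy fell or did not pass, and those of the lysosome went both ways. All 25 proteasome subunit genes rose (median 1.08), with Psmd1 of the regulatory cap at 200.4, 158 and 162 CPM in uninjured muscle and 455, 451, 450.0 and 452 CPM at day 1 (log2FC 1.38 ± 0.09, adjusted p = 2.98e-12). Of 18 autophagy and lysosome genes 8 fell and 2 rose (median −0.45). Map1lc3a, which encodes an LC3 protein of the autophagosome membrane, was at 129.6, 145 and 174 CPM in uninjured muscle and 23.7, 30.6, 26.3 and 23.3 CPM at day 1 (log2FC −2.53 ± 0.16), and Ulk1, the kinase that starts autophagy, at 49.7, 60.9 and 73.4 CPM in uninjured muscle and 17.2, 15.5, 14.8 and 22.7 CPM at day 1 (log2FC −1.80 ± 0.16). The rises were the lysosomal protease genes Ctsd (log2FC 1.36 ± 0.13) and Ctsb (log2FC 0.72 ± 0.20), which macrophages express strongly. Without uninjured replicate 1, with DESeq2 or with RLE size factors, 4 rose. The sum of macrophage markers, given above, rose in the same libraries, and its part in these was not tested. Of 22 genes of the unfolded protein response and heat shock 15 rose and 2 fell (median 1.18). The endoplasmic reticulum chaperone gene Calr was at 223, 197 and 166 CPM in uninjured muscle and 545, 547, 556 and 600.3 CPM at day 1 (log2FC 1.53 ± 0.12), while Herpud1 (log2FC −1.51 ± 0.14) and the factor gene Xbp1 (log2FC −0.99 ± 0.12) fell. The heat shock genes Hspa1a (log2FC 1.36 ± 0.75), Hspa1b (log2FC 0.88 ± 0.70) and Hspb1 (log2FC 0.05 ± 0.36) did not pass. The first pair are near-identical copies. Of 22 NRF2 and antioxidant genes 18 rose and 2 fell. Gsr, which encodes glutathione reductase, was at 31.3, 32.4 and 31.4 CPM in uninjured muscle and 212, 227, 242 and 235 CPM at day 1 (log2FC 2.85 ± 0.12, adjusted p = 8.45e-15), Hmox1, which encodes heme oxygenase, rose from 5.87, 7.92 and 6.89 to 69.4, 97.8, 132 and 81.1 CPM (log2FC 3.78 ± 0.23), and catalase, encoded by Cat, fell (log2FC −1.05 ± 0.12). Hmox1 was highest in day 1 replicate 3, as the macrophage marker sum was, and the part of leukocyte RNA in it was not tested. Without uninjured replicate 1 or 2, with no filter or in the 7 libraries alone, 1 gene of the NRF2 and antioxidant list fell. Called with 1 library left out were Hspa1a without uninjured replicate 2 (adjusted p = 0.0122, log2FC 2.65) and Hspa1b without uninjured replicate 2 (adjusted p = 0.0241, log2FC 2.11). Other settings did call Hspa1a with no filter (adjusted p = 5.8e-27) and Hspa1b with no filter (adjusted p = 2.62e-13). Their log2FC was 1.47 and 0.99 there, near the main values. These p-values thus reflect the spread fitted without the filter and not a larger change.

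Immediate early genes were low in uninjured libraries at ZT4 and higher at day 1. This comparison was chosen with the low level of these genes in its baseline known. Their low start and the direction of their change are thus not independent findings. Of 28 tested, 22 rose, none fell in edgeR (0 at an unadjusted p under 0.05, 0 by DESeq2, 0 by limma) and 6 did not pass, with a median of 3.12. Fos, a subunit of the factor AP-1 (chromosome 12, 85473890 to 85477273), was at 319.8, 539.9 and 196 CPM in uninjured muscle and 3692, 3461, 4366 and 3118 CPM at day 1 (log2FC 3.38 ± 0.91, adjusted p = 0.00392). Fosl1, which encodes the AP-1 subunit FRA1, was at 2.15, 1.24 and 0.320 CPM in uninjured muscle and 312, 281, 295 and 291 CPM at day 1 (log2FC 7.78 ± 0.49, adjusted p = 2.02e-10), with the smallest p of the list. Atf3, a stress factor, was at 0.565, 0.990 and 1.76 CPM in uninjured muscle and 229.7, 228, 247 and 181 CPM at day 1 (log2FC 7.70 ± 1.5), and Ccn1, a secreted matrix protein gene, at 275, 471 and 141 CPM in uninjured muscle and 3156, 2820.2, 2929 and 2628 CPM at day 1 (log2FC 3.28 ± 0.61).

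The AP-1 genes Fosb (log2FC 5.02 ± 1.21), Fosl2 (log2FC 1.64 ± 0.51), Jun (log2FC 2.03 ± 0.66) and Junb (log2FC 2.49 ± 0.72) rose. So did the zinc finger and nuclear receptor genes Egr2 (log2FC 4.92 ± 1.04), Egr3 (log2FC 3.26 ± 1.17), Klf2 (log2FC 4.24 ± 0.71), Klf4 (log2FC 2.63 ± 0.71), Klf6 (log2FC 1.81 ± 0.35), Nr4a1 (log2FC 3.47 ± 1.08) and Nr4a2 (log2FC 4.10 ± 0.81). The feedback inhibitors Socs3 (log2FC 4.34 ± 0.86), Zfp36 (log2FC 3.10 ± 0.83) and Btg2 (log2FC 1.81 ± 0.73) rose, as did Csrnp1 (log2FC 5.55 ± 1.01), Gadd45b (log2FC 3.11 ± 0.47), Ier3 (log2FC 3.14 ± 0.58) and Ier5 (log2FC 3.49 ± 0.51). Jund (log2FC 0.89 ± 0.44), Maff (log2FC 0.17 ± 0.45), Dusp1 (log2FC 0.77 ± 0.50), Ccn2 (log2FC 0.14 ± 0.50), Ier2 (log2FC 0.51 ± 0.46) and Egr1 (log2FC 1.45 ± 0.77) missed the threshold. Egr1 was at 988, 1324 and 414 CPM in uninjured muscle and 2733, 2533, 2539 and 2129.9 CPM at day 1 (adjusted p = 0.108) and Jund at 138, 211 and 179 CPM in uninjured muscle and 355, 317, 292 and 336 CPM at day 1 (adjusted p = 0.0843), and in neither did the groups overlap. The fit shares 1 spread per gene over all 22 libraries. With no filter the changes hardly moved (log2FC 1.56 for Egr1 and 0.99 for Jund) while p fell steeply. The no-filter p-values given below are thus not stronger support. With the 7 libraries alone 24 genes of the list rose and 0 fell, and by limma 17 rose, without Atf3, Btg2, Egr2, Egr3 and Fosb. Calls that rested on 1 library were those of Fosl2 without uninjured replicate 2 (adjusted p = 0.0528), Jun without uninjured replicate 3 (adjusted p = 0.0565), Egr3 without uninjured replicate 1 or 3 (adjusted p from 0.0588 to 0.0679) and Btg2 without uninjured replicate 1 or 3 or day 1 replicate 1, 2 or 3 (adjusted p from 0.054 to 0.116). Under other settings a call was made for Jund with DESeq2, no filter or the 7 libraries alone (adjusted p from 1.79e-12 to 0.0398), Dusp1 with no filter or the 7 libraries alone (adjusted p from 5.13e-11 to 0.00324), Ier2 with no filter (adjusted p = 1.22e-05) and Egr1 with DESeq2, no filter or the 7 libraries alone (adjusted p from 1.21e-35 to 0.0478).

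At ZT16 the same comparison gave, for these genes, 2 up and 14 down of 28 (median −1.44). The difference between the times passed its own test for 23 genes, each with a higher log2 fold change at ZT4, against 7.46% of all genes in either direction. The comparison was chosen for their low uninjured level at ZT4, so neither this count nor its direction is an independent finding. The day 1 levels of Fos were 3829.6, 3324, 3534 and 452 CPM at ZT16, and the uninjured levels were 19968, 469.6 and 16117 CPM. Replicates 1 and 3 of the uninjured ZT16 group were thus far above replicate 2, which lay within the range of the uninjured ZT4 libraries, and day 1 replicate 4 was the lowest of its group. Without those 2 libraries the difference between the times passed for 0 genes of the list (with 1 library left in that group, assumed to vary like the others), and at ZT4, where they enter through the shared spread alone, 24 rose.

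**Figure D3:**
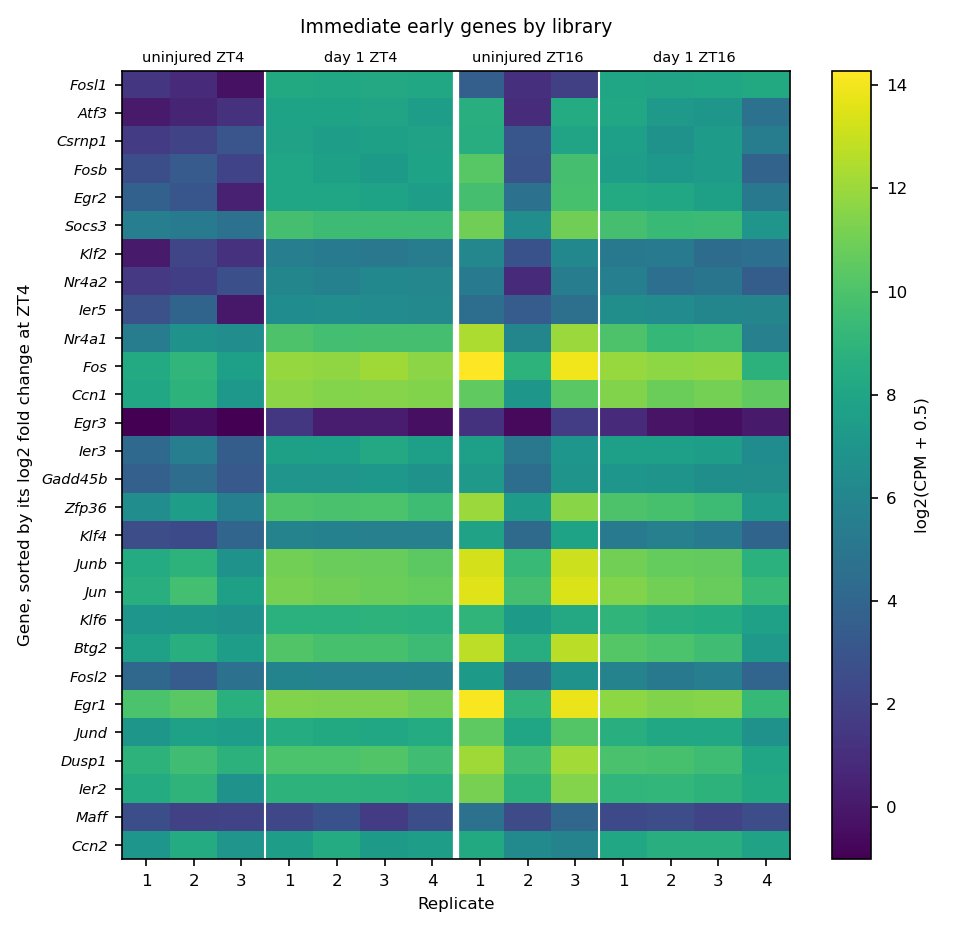
Level of 28 immediate early genes (rows) in each library (columns) as log2(CPM + 0.5), for uninjured and day 1 libraries at ZT4 and at ZT16. The uninjured ZT4 libraries and uninjured ZT16 replicate 2 are low, and uninjured ZT16 replicates 1 and 3 are the brightest columns for genes such as Fos, Jun and Egr1.

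Of 27 chemokine and cytokine genes tested, 22 rose and none fell in edgeR (0 at an unadjusted p under 0.05, 0 by DESeq2, 0 by limma), out of 29 in the list. Genes without a count in uninjured libraries, such as Il1b, Cxcl2 and Osm, passed the filter on low counts through other libraries, so their direction was fixed by it. Csf1, the macrophage growth factor gene, was at 20.7, 13.1 and 18.7 CPM in uninjured muscle and 497, 451, 375 and 424 CPM at day 1 (log2FC 4.64 ± 0.19, adjusted p = 8.18e-15). Cxcl12, which attracts CXCR4-bearing cells, was at 35.3, 45.0 and 64.7 CPM in uninjured muscle and 201, 219, 197 and 207 CPM at day 1 (log2FC 2.10 ± 0.17), the neutrophil attractant Cxcl5 at 0.113, 0 and 0 CPM in uninjured muscle and 24.4, 29.7, 16.5 and 16.1 CPM at day 1 (log2FC 8.49 ± 0.71), and Mif, a cytokine gene of many cell types, at 139.7, 164 and 172 CPM in uninjured muscle and 689, 665, 650.0 and 682 CPM at day 1 (log2FC 2.08 ± 0.14). Those that did not pass were Cxcl14 (log2FC 0.47 ± 0.48), Cxcl16 (log2FC 0.71 ± 0.37), Cx3cl1 (log2FC 0.41 ± 0.19), Il15 (log2FC −0.40 ± 0.87) and Lif (log2FC 0.85 ± 0.71). The macrophage markers that rose with them had day 1 sums between 2689 and 4666 CPM, highest in replicate 3, and Tyrobp was at 0.113, 0.742 and 0 CPM in uninjured muscle and 94.9, 111, 148 and 83.8 CPM at day 1 and Cd68 at 1.13, 0.866 and 0.801 CPM in uninjured muscle and 121, 149.6, 217 and 136 CPM at day 1. Il1b, with 192, 141, 444 and 171 CPM at day 1 and no count in uninjured muscle, was also highest in replicate 3. Csf1 was not (497, 451, 375 and 424 CPM). The part of leukocyte RNA in these rises was not tested. With 1 library left out, the threshold was passed by Cxcl16 without uninjured replicate 2 (adjusted p = 0.0383, log2FC 1.03) and Cx3cl1 without uninjured replicate 3 or day 1 replicate 3 (adjusted p from 0.0442 to 0.0477). A call was gained by Cx3cl1 with DESeq2, RLE size factors, a length offset, limma, no filter or the 7 libraries alone (adjusted p from 0.00841 to 0.0381).

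Of 24 cytokine receptor and JAK-STAT genes 9 rose and 6 fell. Tnfrsf12a, the receptor of the cytokine TWEAK, was at 45.7, 41.5 and 27.6 CPM in uninjured muscle and 613, 598, 577 and 559 CPM at day 1 (log2FC 3.93 ± 0.35, adjusted p = 2e-08), and Il13ra1 rose by 5.46 ± 0.38 (log2FC) from 0.565, 0.866 and 0.160 CPM. Falls included the interferon gamma receptor gene Ifngr1 (log2FC −1.18 ± 0.13), the LIF receptor gene Lifr (log2FC −1.29 ± 0.16) and the factor genes Stat5a (log2FC −0.87 ± 0.20) and Stat5b (log2FC −0.67 ± 0.14), and Stat3 did not pass (log2FC 0.30 ± 0.15). In the NF-kB list 9 of 17 rose and 4 fell. Nfkb2 rose (log2FC 1.36 ± 0.16), the main subunit gene Rela fell (log2FC −0.34 ± 0.10), and Nfkb1 (log2FC 0.28 ± 0.21) and Relb (log2FC 0.30 ± 0.14) did not pass. Of 28 interferon and MHC class I genes 4 rose, 8 fell and 16 did not pass (median −0.07). Oas1a rose (log2FC 6.84 ± 0.68) and Stat2 fell (log2FC −1.49 ± 0.23), and Isg15 (log2FC 0.20 ± 0.43), Irf7 (log2FC 0.05 ± 0.37) and B2m (log2FC −0.08 ± 0.22) did not pass. Without uninjured replicate 3, 4 fell. The part of leukocyte RNA in the rises of Il13ra1 and Oas1a was not tested. Passing with 1 library fewer were Stat3 without uninjured replicate 3 or day 1 replicate 4 (adjusted p from 0.0293 to 0.0355), Nfkb1 without uninjured replicate 3 (adjusted p = 0.0343, log2FC 0.56) and Relb without uninjured replicate 1 or 2 or day 1 replicate 2 (adjusted p from 0.0249 to 0.0395). Under other settings no call was made for Rela with no filter (adjusted p = 0.2). Other settings did call Stat3 with DESeq2, RLE size factors, no filter or the 7 libraries alone (adjusted p from 0.0102 to 0.0378) and Relb with DESeq2, RLE size factors or the 7 libraries alone (adjusted p from 0.0166 to 0.042).

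Growth factor ligands and receptors moved in both directions. Of 29 genes of the HGF, FGF, IGF and EGF families 11 rose and 12 fell. Met, the receptor of HGF, the factor known to wake quiescent cells, was at 81.6, 77.0 and 49.2 CPM in uninjured muscle and 344, 339, 286 and 357 CPM at day 1 (log2FC 2.26 ± 0.19, adjusted p = 7.39e-10). Hgf itself was low and did not pass (log2FC 0.24 ± 0.68). Plaur, the receptor of urokinase, which cuts HGF into its active form, was at 3.73, 1.61 and 5.77 CPM in uninjured muscle and 177, 170.4, 203 and 186 CPM at day 1 (log2FC 5.67 ± 0.41). The EGF family ligand Hbegf was at 2.48, 1.73 and 4.01 CPM in uninjured muscle and 91.8, 87.3, 81.6 and 85.2 CPM at day 1 (log2FC 5.01 ± 0.58), and Areg (log2FC 3.19 ± 0.66) and Ereg (log2FC 4.84 ± 0.98) rose from lower levels. Falls were seen in Fgfr1, at 842, 819.6 and 804 CPM in uninjured muscle and 253, 209, 195 and 238 CPM at day 1 (log2FC −1.88 ± 0.14, adjusted p = 3.22e-11), and in Igf1, at 132, 73.3 and 58.0 CPM in uninjured muscle and 2.05, 4.58, 3.11 and 5.65 CPM at day 1 (log2FC −4.51 ± 0.34).

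Of 24 TGF-beta and BMP genes 13 fell and 4 rose (median −1.05). Tgfb3 was at 307, 236 and 339 CPM in uninjured muscle and 58.5, 54.3, 44.2 and 48.2 CPM at day 1 (log2FC −2.52 ± 0.21), the coreceptor gene Tgfbr3 at 503, 522 and 503 CPM in uninjured muscle and 84.4, 81.4, 85.8 and 89.2 CPM at day 1 (log2FC −2.58 ± 0.23), and Fstl1, a follistatin-like secreted protein gene, fell by 2.13 ± 0.19. The inhibitors of differentiation Id1 (log2FC 1.76 ± 0.24) and Id2 (log2FC 1.94 ± 0.16) rose, with Id2 at 92.5, 77.1 and 124 CPM in uninjured muscle and 381, 360.1, 397 and 359 CPM at day 1, and Id3 did not pass (log2FC 0.14 ± 0.28). The ligand genes Tgfb1 (log2FC 1.95 ± 0.68) and Inhba (log2FC 2.54 ± 0.80) rose from low levels. Of 15 genes tested in the Wnt list 6 fell and 1 rose, or 5 of 14 fell without Tcf4. Without uninjured replicate 1 or day 1 replicate 1, 2 rose. Tcf4, which encodes the E-box factor E2-2 and not the Wnt factor once given that name, was at 467, 452 and 572 CPM in uninjured muscle and 133, 117, 125 and 114 CPM at day 1 (log2FC −2.02 ± 0.10, adjusted p = 5e-14), the Wnt effector Tcf7l2 fell (log2FC −0.86 ± 0.14), and Ctnnb1, which encodes beta-catenin, rose (log2FC 0.39 ± 0.10). The call was lost for Tgfb1 without uninjured replicate 1 (adjusted p = 0.0578). The call was not made for Tgfb1 with a length offset (adjusted p = 0.055).

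Of 28 matrix genes 16 fell and 5 rose (median −0.96). Sparc, a collagen-binding protein gene, was at 2043, 2048 and 1905 CPM in uninjured muscle and 652, 646, 745 and 653 CPM at day 1 (log2FC −1.57 ± 0.10, adjusted p = 2.63e-12), and Col6a1 at 681, 743 and 509.9 CPM in uninjured muscle and 84.7, 70.9, 59.6 and 61.6 CPM at day 1 (log2FC −3.22 ± 0.24). Col5a3 fell as well (log2FC −2.80 ± 0.22). Tnc, which encodes tenascin C, was at 1.69, 5.69 and 0.320 CPM in uninjured muscle and 607, 581, 530.3 and 653 CPM at day 1 (log2FC 7.78 ± 0.81, adjusted p = 2.48e-07), and Fn1, which encodes fibronectin, at 14.3, 12.9 and 9.13 CPM in uninjured muscle and 326, 303, 409 and 386 CPM at day 1 (log2FC 4.86 ± 0.34). The other rises were Thbs1 (log2FC 6.34 ± 0.80), Vcan (log2FC 4.38 ± 0.44) and Col6a3 (log2FC 2.28 ± 0.65). Of 15 protease and hyaluronan genes 8 rose and 6 fell. Cd44, the hyaluronan receptor, was at 49.0, 45.2 and 45.3 CPM in uninjured muscle and 487, 521, 478 and 500.4 CPM at day 1 (log2FC 3.42 ± 0.14, adjusted p = 4.26e-15), and the protease inhibitor gene Timp1 at 1.58, 2.23 and 0.160 CPM in uninjured muscle and 107, 110.0, 129.5 and 94.3 CPM at day 1 (log2FC 6.27 ± 0.42). Mmp2 fell from 456, 529 and 373 to 37.5, 32.7, 53.6 and 34.2 CPM (log2FC −3.52 ± 0.29), and Mmp9, also a neutrophil and macrophage gene, rose to 38.7, 23.7, 72.2 and 19.7 CPM (log2FC 8.54 ± 0.75). Has1, a hyaluronan synthase gene, had no count in 3 uninjured libraries and 94.4, 86.2, 94.5 and 111 CPM at day 1, at least 745-fold higher when the uninjured group is set to a floor of 3 counts. Has1 is among the 8 that rose, but it passed the filter on low counts through other libraries, so its direction was fixed by it.

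Membrane proteins that tie the cell to its niche moved in both directions. Of 18 integrin and membrane partner genes 8 fell and 5 rose, and the falls included the dystrophin gene Dmd (log2FC −1.97 ± 0.19), its relative Utrn (log2FC −1.66 ± 0.15) and the tetraspanin genes Cd81, at 858, 614 and 738 CPM in uninjured muscle and 261, 272, 275 and 261 CPM at day 1 (log2FC −1.46 ± 0.10), and Cd9 (log2FC −1.14 ± 0.10). The fibronectin receptor gene Itga5 rose (log2FC 1.64 ± 0.17), and Itga7 (log2FC 0.18 ± 0.14) and Itgb1 (log2FC 0.15 ± 0.08), which bind laminin together, did not pass. In that list 3 genes rose without uninjured replicate 3. Of 22 actin and motility genes 19 rose and none fell in edgeR (0 at an unadjusted p under 0.05, 0 by DESeq2, 0 by limma). Vim, the intermediate filament gene of migrating cells, was at 334, 504 and 449 CPM in uninjured muscle and 2169, 2215, 2323 and 2171 CPM at day 1 (log2FC 2.37 ± 0.14, adjusted p = 6.48e-13), and Tubb5 at 152, 91.9 and 146 CPM in uninjured muscle and 761, 853, 947 and 824 CPM at day 1 (log2FC 2.70 ± 0.15). Lgals3, which macrophages express too, was at 2.48, 2.10 and 5.77 CPM in uninjured muscle and 197, 251, 358 and 199 CPM at day 1 (log2FC 6.24 ± 0.32), and the part of macrophage RNA in it was not tested. Tmsb4x (log2FC 0.07 ± 0.10), Tmsb10 (log2FC 0.18 ± 0.22) and Myl12a (log2FC 0.16 ± 0.08) did not pass. The threshold was passed by Itga7 without uninjured replicate 1 (adjusted p = 0.0255, log2FC 0.42), Itgb1 without uninjured replicate 1 (adjusted p = 0.00483, log2FC 0.28), Tmsb10 without uninjured replicate 1 (adjusted p = 0.0425, log2FC 0.56) and Myl12a without uninjured replicate 1 or 3 (adjusted p from 0.0197 to 0.0262). Under other settings a call was made for Itgb1 with DESeq2, RLE size factors or a length offset (adjusted p from 0.00154 to 0.0214) and Myl12a with DESeq2, RLE size factors, a length offset or limma (adjusted p from 0.0127 to 0.0285).

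The circadian clock, a loop in which BMAL1 with CLOCK or NPAS2 switches on its own repressors, differed in 13 of 19 genes, 4 up and 9 down, while 64.2% of all genes were called in either direction. Arntl, which encodes BMAL1, was at 49.6, 24.6 and 32.0 CPM in uninjured muscle and 8.73, 6.0, 8.71 and 9.79 CPM at day 1 (log2FC −2.09 ± 0.31, adjusted p = 2.35e-06), and Npas2 at 28.7, 32.0 and 49.0 CPM in uninjured muscle and 1.91, 1.74, 2.33 and 3.03 CPM at day 1 (log2FC −4.01 ± 0.57), while Clock did not pass (log2FC 0.12 ± 0.23). Rora, which activates Arntl, fell (log2FC −2.28 ± 0.24), and Nr1d1, the gene of the repressor REV-ERB alpha, fell too and was at 339.8, 402 and 324 CPM in uninjured muscle and 83.9, 73.2, 98.7 and 80.1 CPM at day 1 (log2FC −2.08 ± 0.17, adjusted p = 2.99e-10). Of the repressors, Nr1d2 (log2FC −0.75 ± 0.15), Per3 (log2FC −1.77 ± 0.26) and Bhlhe41 (log2FC −0.82 ± 0.22) fell, Cry1 (log2FC 1.29 ± 0.26), Nfil3 (log2FC 3.00 ± 0.59), Ciart (log2FC 1.54 ± 0.39) and Bhlhe40 (log2FC 1.42 ± 0.60, adjusted p = 0.0487) rose, and Per1 (log2FC −0.66 ± 0.48), Per2 (log2FC −0.17 ± 0.42) and Cry2 (log2FC −0.50 ± 0.26) did not pass. The output genes Dbp (log2FC −1.58 ± 0.20) and Tef (log2FC −1.01 ± 0.14) fell, and Hlf (log2FC 0.17 ± 0.44) and Usp2 (log2FC −0.85 ± 0.47) did not pass. Since the hour of collection is not given, a change in phase and a change in level cannot be told apart. At ZT16 0 rose and 13 fell. The difference passed for 11 genes, with Arntl alone having a lower log2 fold change at ZT4. Without uninjured ZT16 replicates 1 and 3, 0 were higher and 1 lower. With 1 library left out, the call was lost for Bhlhe40 without uninjured replicate 1 or 2 or day 1 replicate 1, 2, 3 or 4 (adjusted p from 0.061 to 0.141). Called with 1 library left out were Clock without uninjured replicate 1 (adjusted p = 0.0415, log2FC 0.56) and Usp2 without uninjured replicate 2 (adjusted p = 0.0445, log2FC −1.18). The other direction was called for Per2 without uninjured replicate 3 (adjusted p = 0.0148, log2FC 0.88). Other settings did not call Bhlhe40 with a length offset (adjusted p = 0.0549). A call was gained by Per1 with no filter (adjusted p = 0.0145), Cry2 with no filter (adjusted p = 0.0401) and Usp2 with no filter (adjusted p = 7.45e-07). The log2FC of Usp2 was −0.75 there, no larger than in the main fit.

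Of 16 genes of the Bcl2 family and p53, 10 rose and 3 fell. Without uninjured replicate 1 or day 1 replicate 3, or with a length offset, 1 fell. Bcl2, which protects from apoptosis, was at 195, 138 and 272 CPM in uninjured muscle and 38.1, 37.7, 42.8 and 39.0 CPM at day 1 (log2FC −2.36 ± 0.22, adjusted p = 3.49e-09), its relative Bcl2l1 rose (log2FC 1.05 ± 0.19), and the death effector Bax was at 84.2, 60.9 and 70.5 CPM in uninjured muscle and 144, 136, 124 and 123 CPM at day 1 (log2FC 0.87 ± 0.12). Of 14 genes of muscle differentiation 6 fell and 1 rose, with Tnnt1 at 43.0, 54.4 and 63.3 CPM in uninjured muscle and 7.09, 4.10, 8.86 and 7.86 CPM at day 1 (log2FC −2.93 ± 0.23), Des, which encodes desmin, up (log2FC 0.55 ± 0.11), and Acta1 (log2FC −0.35 ± 0.39) and Ckm (log2FC −0.34 ± 0.47) not past the threshold. In that list 2 rose without uninjured replicate 1. Hif1a, the hypoxia factor, rose (log2FC 1.75 ± 0.15), and of 12 hypoxia genes 3 rose and 5 fell. The glucocorticoid receptor gene Nr3c1 fell (log2FC −1.36 ± 0.16), while its targets Fkbp5 (log2FC 1.52 ± 0.31) and Sgk1 (log2FC 1.53 ± 0.32) rose and Fbxo32 fell (log2FC −1.52 ± 0.33). Of 18 splicing regulators 11 rose and 4 fell. Ptbp1, a repressor of neural and muscle exons, was at 161, 138 and 162 CPM in uninjured muscle and 498, 507, 500.4 and 495 CPM at day 1 (log2FC 1.71 ± 0.13, adjusted p = 1.07e-10), and Mbnl2, which promotes adult muscle splicing, at 419, 416 and 499 CPM in uninjured muscle and 168, 164, 160.2 and 158 CPM at day 1 (log2FC −1.45 ± 0.10).

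**Figure D4:**
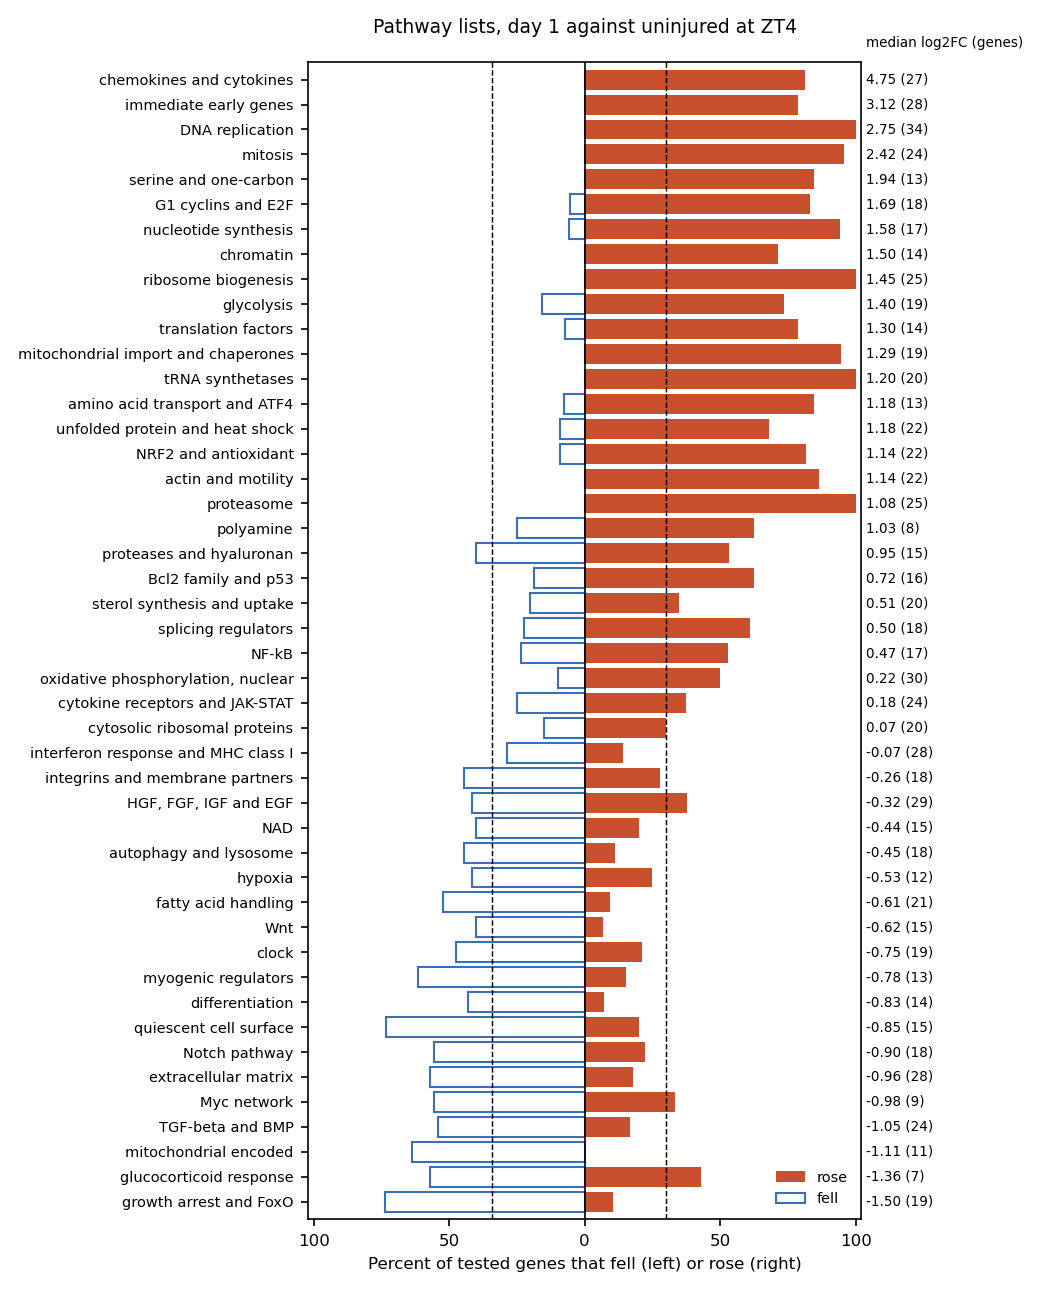
Percent of the tested genes of each of 46 pathway lists that rose (right, filled) or fell (left, open) at day 1 against uninjured at ZT4, sorted by the median log2 fold change, which is printed at the right with the number tested. Dashed lines mark 30.1% up and 34.2% down over all 15084 genes. Chemokines, immediate early genes and DNA replication are at the top, and growth arrest, glucocorticoid response and mitochondrially encoded genes at the bottom.

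Transcript usage was described from the deposited percent of a gene's output that each transcript makes up, with no test. A transcript was counted when the groups' ranges did not overlap and their medians differed by at least 20 points. Of 35234 transcripts of 6306 genes with at least 10 CPM in both groups, 1271 were counted (3.61%), in 904 genes. Transcripts that GENCODE M21 lists as retained introns were counted as lower in 88 and higher in 27 of 9163, and protein-coding ones as lower in 411 and higher in 589 of 17827, a split looked at after the values were seen. Pfas, a purine synthesis enzyme, had such a change. Its retained-intron transcript Pfas-205 made up 80.0, 78.6 and 53.1% in uninjured and 3.51, 0, 0 and 0% in day 1 libraries, and the full coding transcript Pfas-201, of 1337 codons, 16.5, 14.2 and 39.8% and 90.6, 89.8, 87.6 and 92.4%.

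Ddi2, a protease gene whose product activates the factor NRF1, changed the end of its last exon, which starts at the same base in both transcripts. Ddi2-202, of 582 codons, was at 0, 11 and 0% in uninjured and 88.4, 84.1, 89.1 and 88.3% at day 1, and Ddi2-201, of 399 codons, made up the rest. Dusp3, a phosphatase gene, exchanged its first exon, with Dusp3-206 (117 codons) at 90.3, 84.4 and 89.8% and 0.240, 5.41, 0.810 and 0% and Dusp3-201 (185 codons) at 6.34, 6.98 and 0% and 82, 75.4, 85.9 and 82.5%. Lmna makes lamins A and C. Lmna-201, of 665 codons, lay at 49.6, 49.6 and 41.1% and 26.7, 26.4, 24.2 and 26.2%, and Lmna-203, of 574 codons, at 46.7, 42.5 and 53.3% and 59.6, 60.4, 63.2 and 58.9%. The shorter one thus took a larger share at day 1. In Tra2b, a splicing activator that limits its own level, Tra2b-201 went from 25.6, 19.7 and 36.0% to 53.5, 53.8, 50.1 and 50.9%, and the nonsense-mediated decay transcript Tra2b-206 from 29.3, 35.1 and 14.1% to 7.85, 9.01, 12.2 and 11.3%, a median difference just under 20 points. Tpm3-201 went from 59.0, 47.2 and 53.6% to 73.7, 74.7, 77.8 and 74.0%, Mef2a-208 from 66.4, 70.3 and 67.3% to 27.4, 24.6, 30.6 and 20.7%, and Capzb-203 from 40.2, 42.2 and 45.4% to 17.4, 19.3, 18.7 and 19.1%. Numb, Tpm1, Bin1 and Vegfa had no transcript counted. Such shares rest on few reads where a gene is low, as in Fn1, whose uninjured level was 14.3, 12.9 and 9.13 CPM and whose transcript Fn1-202 stood at 25.4, 33.8 and 63.0% there.

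The widest rises of single genes were against uninjured libraries without counts. Il1b, Chil3, Cxcl2, Msr1, Osm, Ccl4, Slc11a1, Clec7a, Ppbp and Clec4n had no count in uninjured muscle, and were at least 378-fold to 1830.2-fold higher at day 1 with the uninjured group set to that floor. These are genes known from macrophages, neutrophils and platelets, and the macrophage sum rose in the same libraries. Ccl9, with 2 counts in uninjured muscle, reached 229.9, 257, 398 and 265 CPM. Among the widest falls, Tac4, which encodes the tachykinin hemokinin, was at 31.7, 28.2 and 24.5 CPM in uninjured muscle and had no count at day 1, at least 257-fold lower. Mrln, which encodes myoregulin, an inhibitor of the calcium pump, was at 41.0, 41.0 and 67.9 CPM in uninjured muscle and 0.136, 0.158, 0.778 and 0.414 CPM at day 1 (log2FC −7.02 ± 0.38, adjusted p = 2.18e-13). Actc1, the cardiac actin of immature muscle, was at 84.2, 86.0 and 20.5 CPM in uninjured muscle and 0.818, 1.58, 0.467 and 0.689 CPM at day 1 (log2FC −6.16 ± 0.61). The noncoding RNA gene Nctc1, near Igf2, fell from 148, 162 and 240.0 to 3.14, 2.37, 6.69 and 5.24 CPM (log2FC −5.39 ± 0.49). Others were the organic cation transporter gene Slc22a3 (log2FC −7.07 ± 0.82), the angiotensin type 2 receptor gene Agtr2 (log2FC −6.02 ± 1.07), the kinase scaffold gene Ksr2 (log2FC −5.36 ± 0.90), the cadherin gene Cdh4 (log2FC −5.17 ± 0.61) and the lipid droplet gene Pnpla3 (log2FC −4.91 ± 0.96). Uninjured replicate 3 was the lowest of its group for Actc1, Agtr2, Cdh4 and Ksr2 and the highest for Mrln, Nctc1 and Pnpla3.

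The ZT4 comparison was set against the same one at ZT16, where 4646 genes rose and 5214 fell. The difference of the injury effects was tested directly, and 1125 genes passed (7.46%), 532 of them with a higher and 593 with a lower log2 fold change at ZT4. Sterol genes stood apart. At ZT16 16 of 20 rose and 4 fell, and 14 had a lower log2 fold change at ZT4 by the test of the difference. Fdps, a cholesterol synthesis enzyme gene, was at 190.4, 80.2 and 172 CPM in uninjured muscle and 309.7, 279.6, 253 and 232 CPM at day 1 at ZT4 (log2FC 0.86 ± 0.20) and at 28.8, 22.9 and 26.8 and 343, 329, 227 and 275 CPM at ZT16 (log2FC 3.49 ± 0.23, difference −2.62 ± 0.29, adjusted p = 4.72e-05). Each uninjured ZT16 library lay below each uninjured ZT4 library, and the day 1 ranges overlapped. Without uninjured ZT16 replicates 1 and 3, fewer of the list had a lower log2 fold change at ZT4. The log2 fold change was lower at ZT4 in 17 of 20 ribosomal protein, 10 of 30 nuclear respiratory chain and 9 of 22 actin and motility genes. Fewer passed in each of these lists without those libraries, where 1 library stands for the group. With only uninjured ZT16 replicate 1 left out, the numbers were 4 ribosomal protein, 7 respiratory chain, 8 actin and motility and 14 sterol genes. With only replicate 3 left out they were 6, 7, 9 and 14. Levels were another matter: uninjured sums of ribosomal protein genes were 15719, 21119 and 22046 CPM at ZT4 and 11876, 13875 and 12425 CPM at ZT16. Dbi, an acyl-CoA binding protein gene, had the smallest p of all genes (difference −1.47 ± 0.15, adjusted p = 7.94e-06), with 170.2, 134 and 141 CPM in uninjured muscle and 146, 153, 136 and 126 CPM at day 1 at ZT4 and 52.3, 48.8 and 42.6 and 125, 123, 132 and 122 CPM at ZT16. Others with small p were Trip10, a membrane curvature protein gene (1.44 ± 0.16), the thiamine transporter gene Slc19a2 (2.02 ± 0.25), Iqsec3 (−1.88 ± 0.22), Tmem97 (−1.57 ± 0.19) and Hsd17b12 (−1.25 ± 0.16), each as the log2 difference between the times. Over all genes 134 passed without uninjured ZT16 replicates 1 and 3 together, 648 without replicate 1 and 728 without replicate 3.

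**Figure D5:**
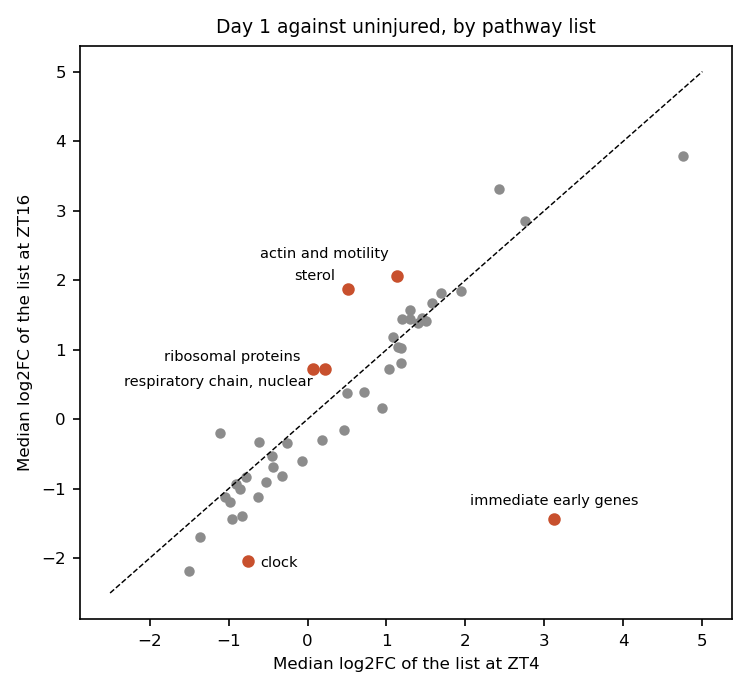
Median log2 fold change of day 1 over uninjured at ZT4 (x) against ZT16 (y) for each of 46 pathway lists, with the line of equal change and the 6 lists with the most genes past the test of the difference named. Immediate early genes lie far below the line, and sterol and ribosomal protein genes above it.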

How the data were processed

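RNA of 22 libraries was sequenced after SMART-seq v4 amplification, per the labels' protocols. Per the submitters' processing notes, reads were trimmed with Trimmomatic 0.33 and handled with STAR 2.5.2, RSEM 1.3.3 and DESeq2 on mm10, and the annotation release is not given in the sources used here. Each library has a deposited RSEM table per transcript with the expected count, the effective length, the TPM and the percent of the gene's output (IsoPct), per the file headers. Expected counts were summed over the 43430 gene IDs, of which 42546 matched GENCODE M21 (GRCm38), the source of names and gene coordinates, and were rounded to whole numbers.

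Genes were kept by edgeR's filter (minimum count 10, minimum total 15), which left out 28346. The test was edgeR 4.0.16's robust quasi-likelihood test with TMM scaling on all 22 libraries in groups by day and time, so that the ZT4 contrast shares its spread with groups not compared here. DESeq2 1.42.0 and limma 3.58.1 were alternatives, in R 4.3.3. The script was tested on simulated data. The difference between ZT4 and ZT16 was an interaction contrast. No pairing of the samples by replicate number was seen (correlations of same-numbered deviations −0.0231, 0.0044 and 0.0122). With so few libraries these correlations cannot show that there was none. No column of per-sample values was left unused for lack of a sample. How reads were assigned by strand is not given in the sources used here, so overlapping and antisense genes cannot be told apart. Library totals bound the precision of low genes, and a group without counts was set to a floor of 3 counts over the group.

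The gene lists and the marker lists were chosen with earlier results of these data known. Named genes come, in each list, from the 4 genes with the smallest p and the members that did not pass or went against the majority, with all members of the myogenic, immediate early, Myc and clock lists and all Mcm genes, and over all genes the 12 most raised and 12 most lowered of at least 10 CPM whose groups do not overlap and those among the 8 with the smallest p for the difference. Some genes that this rule covers are not reported here. Transcript usage was described in listed genes and the 10 largest differences. Promoter windows are those of RefSeq (GRCm38.p6).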

Additional observations from a re-analysis of the deposited data

Results flagged for a closer look

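Groups of 4 libraries were searched for a library far from its 3 neighbours, by Dixon's test at its 95% critical value, which chance alone passes for about 1 in 20 groups. Of 110 genes with printed values, 5 passed in the day 1 ZT4 group, and 1 marker sum did. The highest library stood apart for Il1b at 444 CPM, for Sparc at 745 CPM, for Mymx at 0.158 CPM and for the macrophage and monocyte markers at 4666 CPM, and the lowest for Myod1 at 1213 CPM and for Shmt2 at 369 CPM. Replicate 3 was the highest library for Il1b, Sparc and the macrophage markers and the lowest for Myod1.

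The interaction test of edgeR compares the injury effects at ZT4 and ZT16, and a difference between uninjured or between day 1 libraries can pass it. Mean levels of Trip10 at ZT4 and ZT16 were 117 and 352 CPM in uninjured muscle and 122 and 135 CPM at day 1. Those of Iqsec3 were 164 and 44.7 CPM and 134 and 134 CPM. The other genes were not sorted in this way. By this test 69 of 276 named genes passed, given here as the log2 difference ZT4 minus ZT16. Of these genes, 10 passed without uninjured ZT16 replicates 1 and 3: Aars, Arntl, Dbi, Fdps, Fkbp5, Hsd17b12, Iqsec3, Slc19a2, Tmem97 and Trip10. Among immediate early genes the differences were Atf3 8.42, Fos 5.51, Fosb 7.52, Fosl1 2.20, Fosl2 2.96, Jun 4.17, Junb 4.71, Jund 2.73, Btg2 4.39, Dusp1 2.95, Socs3 5.57, Zfp36 4.88, Csrnp1 6.17, Gadd45b 2.95, Ier2 2.5, Ier3 2.69, Egr1 3.70, Egr2 6.42, Klf2 4.90, Klf4 4.77, Klf6 1.62, Nr4a1 5.92 and Nr4a2 4.13, and none of these 23 was among the 10. The comparison was chosen for the low uninjured level of immediate early genes at ZT4, so their differences are not independent findings. Among clock genes the differences were Arntl −2.19, Dbp 1.01, Hlf 2.73, Tef 1.05, Usp2 2.72, Bhlhe41 1.38, Cry1 1.49, Nfil3 3.25, Nr1d2 0.89, Per2 2.12 and Per3 1.23. In the other genes among the 10 they were Aars −0.52, Dbi −1.47, Fdps −2.62, Fkbp5 1.89, Hsd17b12 −1.25, Iqsec3 −1.88, Slc19a2 2.02, Tmem97 −1.57 and Trip10 1.44.

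Further genes with a positive difference were Ccne2 1.06, Cd68 3.27, Csf1 0.96, Cxcl5 3.75, Fn1 1.59, Has1 10.38, Hbegf 2.80, Herpud1 0.67, Hk2 1.84, Hmga1 0.89, Lgals3 1.45, Mcm4 0.62, Mxd1 1.97, Myc 1.49, Nampt 0.76, Sdc4 1.19, Sgk1 1.61 and Stat3 0.67. The value of Has1 is a fitted one against a group without counts and depends on the prior count. Negative differences were found for Col5a3 −1.17, Cox8a −0.81, Eno1 −0.59, Mif −0.76, Myl12a −0.51, Rps2 −0.93, Sparc −0.63 and Utrn −0.70. Cd68, Cxcl5 and Lgals3 are genes that leukocytes express, and the part of leukocyte RNA in their differences was not tested.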

How the results depend on the processing

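At ZT4, the genes called higher numbered 4538 and those called lower 5153. With DESeq2 they were 4908 and 4926, with RLE size factors 4827 and 4867, with a length offset 4774 and 4585, with limma voom 4326 and 5099, with no filter on low counts 4941 and 4653, in the 7 libraries alone 4363 and 4375, and without uninjured ZT16 replicates 1 and 3, an alternative chosen after seeing the data, 5176 and 4787. With 1 library of ZT4 left out they ranged from 4381 to 4894 and from 4468 to 4915. The median log2 fold change of all genes, −0.12, shifted by 0.07 with RLE size factors or DESeq2, by 0.09 with the length offset, by 0.10 with no filter, and by 0.12 without uninjured ZT4 replicate 1 or without uninjured ZT16 replicates 1 and 3. With the replicate block they were 4492 and 5002, and with the block in the 7 libraries alone, added after seeing the data, 3944 and 3633. With the block in all 22 libraries 1 named gene, Ndufa1, lost its call, and Myf6 and Stat3 gained one.

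The difference between the times was the count that moved most. It was 1125 genes, 514 in the 14 libraries alone, and 648 to 1596 with 1 library left out, those of ZT16 added after seeing the data. It was 134 without uninjured ZT16 replicates 1 and 3 together, where 1 library stands for that group. Transcripts counted rose from 1271 to 2937 with a minimum difference of 10 points.

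Of 4308 values of 270 named genes under these settings, 4162 kept their side of the threshold, and 65 lost and 79 gained a call. A call in the other direction was made for 2: Dnmt3a with a length offset (0.55) and Per2 without uninjured ZT4 replicate 3. A change of sign without a call in either fit was not counted as a turn. Per2 ranged from −0.51 to 0.88 with 1 library left out, and was −0.17 with all. The causes were not tested. Of 1856 list counts, 78 moved by over 1.5 times.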
